A study of Homo sapiens with 2 samples.

Results

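Remote KMT2D peaks are listed peaks that stand alone in long peak-free stretches of the genome of OCI-LY7. This is an established lymphoma line of the germinal centre type of diffuse large B-cell lymphoma (GCB-DLBCL), labelled wild type. Remote peaks were chosen by position alone, on chromosomes 1 to 22. More than 250 kb, edge to edge, had to separate a peak from its nearest other listed peak on the same chromosome. Of the 24824 peaks in the list, 24151 lay on these chromosomes, and 575 of them were remote, or 2.38% (exact binomial 95% interval 2.19 to 2.58%). Peaks come from 1 ChIP-seq library, made from cells fixed with 1% formaldehyde for 10 min and sheared to fragments of 200 to 400 bp, with an antibody raised in-house against the N-terminus of KMT2D. An input library without antibody completes the series, and its values were not analysed here. There was no replicate, so intervals in the text are at 95% and cover counting error over peaks only, and no p-value was computed. Depth is unknown, and the labelled cell type cannot be checked against marker genes in a list of peaks.

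KMT2D (MLL4) is a methyltransferase that places methyl groups on lysine 4 of histone H3, chiefly at enhancers, and it also occupies many promoters. The gene is among those most often inactivated in follicular and diffuse large B-cell lymphoma. Enhancers tend to lie in groups around the genes they act on, and long stretches with few genes, called gene deserts, can hold single distant enhancers or the promoter of a solitary gene. A peak list marks where signal passed the threshold of the peak caller, so a peak-free stretch is one without a listed peak and not one shown to be unbound. Genes were not assigned to the remote peaks, because an annotation on hg19, the build of the list, was not used here.

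Peak-free stretches took up most of the autosomal genome in this list. Unassembled sequence, which can lie near centromeres and chromosome ends, was not set apart from them. There were 2191 gaps of over 250 kb between neighbouring peaks, and together they spanned 1948 Mb, which is 70.0% of the 2782 Mb between the first and the last peaks of the chromosomes. A remote peak is a peak with such a gap on each side, or, for the 6 that came first or last on their chromosome, on its only side. For the other 569, the stretch from the left neighbour to the right neighbour had a median length of 1.42 Mb (interval 1.33 to 1.58 Mb, interquartile range 0.939 to 2.51 Mb). The shortest was 0.522 Mb, near the lowest length the rule allows, and the longest was 21.0 Mb. In these 569 stretches the longer flank was a median of 2.01 times as long as the shorter.

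Distance to the nearest peak had a median of 391 kb (interquartile range 307 to 573 kb), and 188 remote peaks had no other peak within 500 kb. Only 57 had none within 1 Mb on either side and 12 had none within 2 Mb. The median remote peak had 6 other peaks within 1 Mb on either side, and 18 within 2 Mb. At the other extreme, 51 remote peaks (8.87%) had 20 or more other peaks within 1 Mb on either side, with a maximum of 59. The same count was not made around peaks that were not remote. These values describe the choice of the members, which the rule made by distance.

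**Figure D1:**
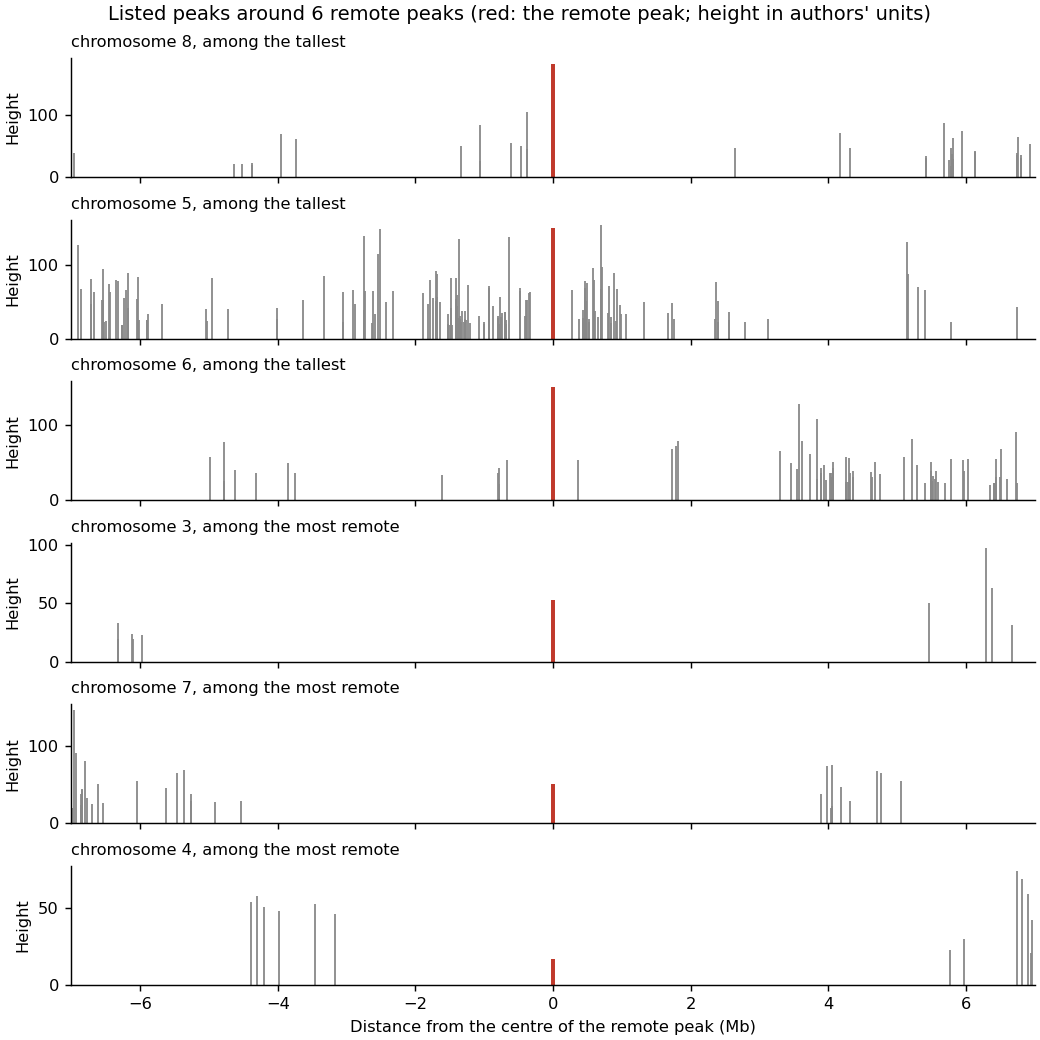
Listed peaks around 6 remote peaks that had neighbours on both sides. The horizontal axis is the distance in Mb from the centre of the remote peak (red) and the vertical axis is peak height in the authors' units, on a scale of its own in each panel. The upper 3 panels show the tallest members, with heights of 182, 151 and 150, and the lower 3 show the most distant ones, with heights of 53, 50 and 17. The chromosome 5 member stands in a gap of a crowded region, while the chromosome 3 member has no listed peak within 5 Mb.

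Height, the authors' whole-number signal value at the top of a peak, was not used by the rule. Remote peaks had a median height of 43 (41 to 45, interquartile range 29 to 57), and the other 23576 autosomal peaks had a median of 40 (39 to 40, interquartile range 27 to 60). The interquartile ranges of both groups overlapped widely, and heights ran from 17 to 182 for remote peaks and from 15 to 320 for the others. Of the remote peaks, 131 (22.8%; 19.4 to 26.4%) had a height of 60 or more, the upper quartile of all autosomal peaks, against a background of 25.4% of all autosomal peaks. A further 122 (21.2%; 17.9 to 24.8%) were at or under the lower quartile of 27, against a background of 25.2%. A height of 100 or more was reached by 19 remote peaks (3.30%; 2.00 to 5.11%), near the background of 4.23%. Both shares of tall peaks have intervals that hold the background, while that of low peaks lies just under it.

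Because chromosomes differ in how tall their peaks are, each remote peak was also ranked among all peaks of its own chromosome. The median percentile was 57.4 (54.5 to 60.2). On 16 of the 22 chromosomes, among them chromosome 19 with its 1 remote peak, the remote median height was above that of other peaks. On 6 it was below. This lead over other peaks changed with the peaks that entered, which altered both the remote set and the others. When peaks under 500 bp apart were merged before the rule was applied, the median percentile was 49.5 (46.9 to 53.1), and the median heights were 43 for remote and 45 for other peaks. When only peaks of height 26 or more entered, the percentile was 51.2 (47.0 to 53.8) and both medians were 47. Among the highest-scoring 50% of peaks, remote peaks were the lower ones, with a median height of 55 against 60 and a percentile of 40.7 (37.7 to 44.0). With peaks of 200 bp or less left out, an alternative chosen after seeing the data, the percentile was 50.9 (46.7 to 54.1).

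Lone peaks that were not remote, with the nearest neighbour more than 12.5 kb and up to 250 kb away, make a closer comparison. There were 8243 of them, and their median height was 48 (48 to 49), above the 43 of remote peaks. Their median percentile within the chromosome was 62.1 (61.2 to 63.2). On 17 of 22 chromosomes the remote median was below the lone median, on 4 it was above and on 1 it was equal. The order held under each alternative that changed which peaks entered: the medians for remote and lone peaks were 43 and 47 after merging, 55 and 60 among the highest-scoring 50%, 47 and 51 at a height of 26 or more, and 46 and 51 without peaks of 200 bp or less. Desert-edge peaks, which had a gap of over 250 kb on 1 side and a nearer neighbour on the other, numbered 3238. Their median height was 41 (40 to 42), and their median percentile of 53.9 (52.4 to 55.8) was slightly under that of remote peaks, with overlapping intervals. No test could be made of any of these differences over samples.

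Across all autosomal peaks, height rose and then fell with distance to the nearest peak. Peaks with a neighbour within 0.5 kb had a median height of 31 (31 to 31). The median rose through 43 (42 to 43) at 2 to 12.5 kb to its highest value of 49 (48 to 51) at 50 to 100 kb, and was 47 (45 to 48) at 100 to 250 kb. Within the remote peaks it was 45 (43 to 47) for the 387 at 250 to 500 kb, 41 (35 to 46) for the 131 at 500 to 1000 kb, 38 (33 to 46) for the 45 at 1000 to 2000 kb and 27.5 (23 to 50) for the 12 beyond. The intervals of these 4 classes overlap, and the last holds 12 peaks only. Across the 575 remote peaks the rank correlation of height with distance was weak, with a Spearman coefficient of -0.090 that describes this list and carries no test. Percentiles within the chromosome ran in the same order, from 64.5 (63.1 to 66.1) at 50 to 100 kb to 59.2 (55.1 to 63.3), 54.6 (46.3 to 61.7), 50.8 (45.4 to 62.6) and 40.3 (14.8 to 67.1) in the 4 remote classes.

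**Figure D2:**
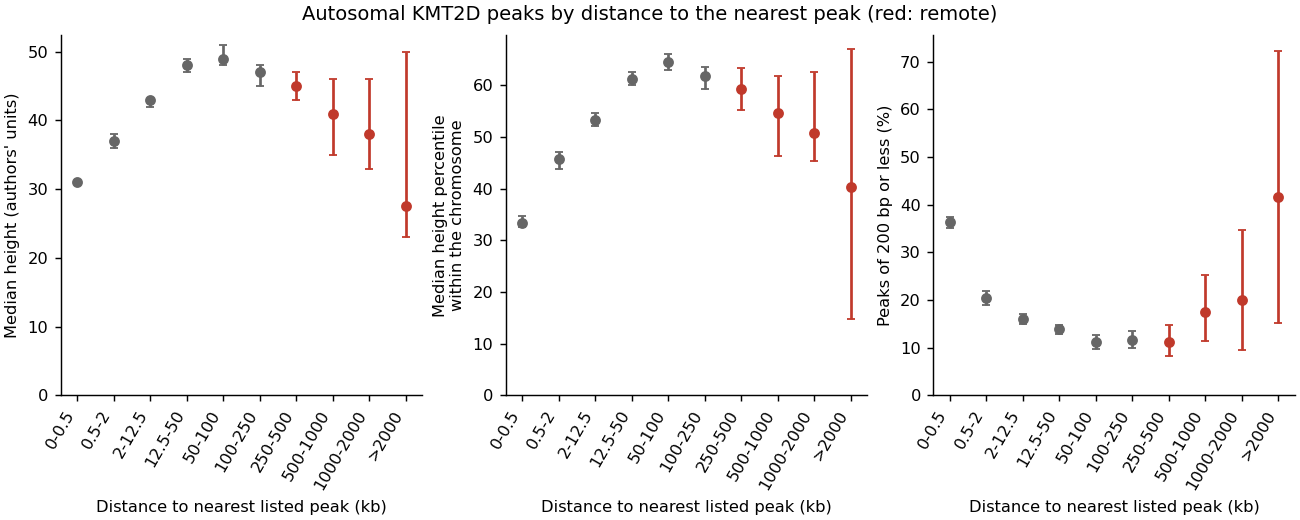
Autosomal KMT2D peaks in 10 classes of distance to the nearest listed peak, given in kb on the horizontal axes. Points are the median height in the authors' units, the median percentile of height within the chromosome and the percentage of peaks of 200 bp or less, with 95% intervals over peaks, and red marks the 4 classes of remote peaks. Height was highest at 50 to 100 kb, at 49, and lower on both sides. The share of narrow peaks fell from 36.3% in the nearest class to 11.1% at 250 to 500 kb and was 41.7% in the farthest class, which holds 12 peaks.

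Remote peaks were moderately wide and seldom very narrow. Their median width was 678 bp (633 to 726 bp, interquartile range 420 to 962 bp), against 607 bp (599 to 617 bp) for the other peaks and 752 bp (740 to 763 bp) for lone peaks. Widths over 500 and up to 1000 bp were found in 263 remote peaks, which is 45.7% (41.6 to 49.9%), against a background of 34.7%. Lone peaks had 41.3% (40.3 to 42.4%) in this class, an interval that overlaps that of remote peaks, and desert-edge peaks had 38.3% (36.6 to 40.0%). Peaks of 200 bp or less numbered 80, or 13.9% (11.2 to 17.0%), against a background of 21.0%. Lone peaks had a share of narrow peaks close to it, at 12.9% (12.2 to 13.6%), and peaks with a neighbour within 0.5 kb had 36.3% (35.1 to 37.4%). Peaks over 2000 bp were rare among remote peaks, with 9 members (1.57%; 0.718 to 2.95%) against a background of 2.24%. Among the members the narrow share was 11.1% (8.16 to 14.7%) at 250 to 500 kb. Beyond 2000 kb it was 5 of 12 (41.7%; 15.2 to 72.3%), an interval that holds the background of 21.0%.

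Width and height went together, as elsewhere in the list. The Spearman coefficient over remote peaks was 0.80, and over the other peaks it was 0.85. The 80 narrow remote peaks had a median height of 23 (21 to 23) and none was above 38. Their median significance value, a negative number deposited for each peak that appears to be the log10 of a p-value and is never above -15 in the list, was -18.0. The 102 wider than 200 and up to 500 bp reached a median of 29 (27 to 30) in height and of -22.8 in significance. Those over 500 and up to 1000 bp had a median height of 47 (45 to 49), and the 130 over 1000 bp had one of 60 (56 to 66) with heights from 32 to 182. The narrow members thus stood close to the lowest values the list contains, and the wide ones did not.

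**Figure D3:**
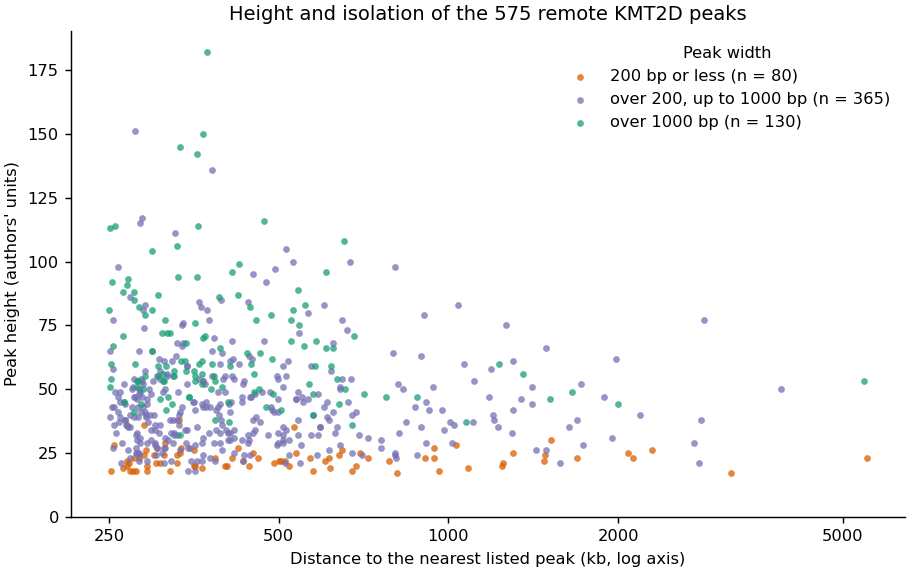
Each point is 1 of the 575 remote peaks, with the distance to its nearest listed peak in kb on a log axis and its height in the authors' units, coloured by width. The 80 peaks of 200 bp or less lie at heights of 17 to 38 at all distances, and the 19 peaks of height 100 or more all lie within 669 kb of another peak.

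Local surroundings gave a comparison within the same part of the genome. Of the 569 remote peaks with a neighbour on each side, 195 (34.3%; 30.4 to 38.3%) were taller than both listed neighbours, against a background of 32.4% among all autosomal peaks. Another 174 (30.6%; 26.8 to 34.5%) were lower than both, against a background of 31.8%. Both intervals hold the background, so no excess of high points or low points was detectable among them. The height of a remote peak minus the mean height of its 2 neighbours had a median of -2 (-3.5 to 0), with 260 above that mean, 304 below and 5 equal to it. This difference was not computed for the other autosomal peaks, so it has no background and shows no trait of remote peaks. By the number of other peaks within 1 Mb, median height was lowest, at 37 (30 to 44), for the 57 remote peaks with 0 such peaks. It was 43 (40 to 47) for the 197 with 1 to 5 and 44.5 (41 to 47) for the 270 with 6 to 19. The 51 with 20 or more had a median of 44 (41 to 55), and all these intervals overlap. Peaks of 200 bp or less made up 24.6% (14.1 to 37.8%) of the 57, an interval that holds the background of 21.0%. With 1 to 5, 6 to 19 and 20 or more such peaks, the narrow shares were 12.2% (7.96 to 17.6%), 13.7% (9.84 to 18.4%) and 9.80% (3.26 to 21.4%). Each of these intervals overlaps that of the 57.

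Remote peaks were found on all 22 autosomes, in unequal shares. Chromosome 5 had the highest share, with 61 of its 1138 peaks remote, or 5.36% (4.12 to 6.83%). Chromosomes 13, 18, 2 and 4 followed, with 4.47% (2.75 to 6.83%), 4.46% (2.57 to 7.14%), 3.96% (3.09 to 4.99%) and 3.87% (2.68 to 5.39%), and the intervals of these 5 chromosomes overlap. At the other end, 1 of the 1570 peaks of chromosome 19 was remote, or 0.064% (0.0016 to 0.354%), and chromosomes 22 and 17 had 0.842% (0.309 to 1.82%) and 1.02% (0.573 to 1.68%). The median over chromosomes was 2.21%. The share fell with the number of peaks per Mb, with a Spearman coefficient of -0.92 over the 22 chromosomes, which the rule largely fixes because close spacing leaves fewer gaps. Counted per Mb, chromosomes 5 and 2 had 0.338 and 0.280 remote peaks, chromosome 4 had 0.173 and chromosome 19 had 0.017. Chromosomes 17 and 22, low by share, had 0.185 and 0.178. With peaks per Mb, this count had a Spearman coefficient of -0.37 over the 22 chromosomes, weaker than the -0.92 of the share. Chromosome 4 had the fewest peaks per Mb of all, at 4.47 against 6.30 on chromosome 5, and gaps of over 250 kb made up 83.2% of its span against 77.9%, and yet it held 33 remote peaks to the 61 of chromosome 5.

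The height of remote peaks also varied by chromosome. On chromosome 4 their median was 48, with a lowest value of 17 and a highest of 96, while the other peaks there had a median of 33. On chromosome 15 the 15 members had a median of 61 and ran from 24 to 117, against 43 for the other peaks. Chromosome 17 went the other way, with a median of 39 and a highest value of 57 for its 15 members against 46 for the other peaks. On chromosomes 8, 14, 16, 20 and 21 the remote median was also the lower, by 3 or less, at 34, 38, 41, 40 and 36 against 35, 40, 44, 41 and 37. On chromosomes 9, 10 and 13 it was only slightly the higher, at 36, 39.5 and 33.5 against 35, 39 and 33. The numbers per chromosome are small, the chromosomes named here were chosen after their values were seen, and their differences were not tested.

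**Figure D4:**
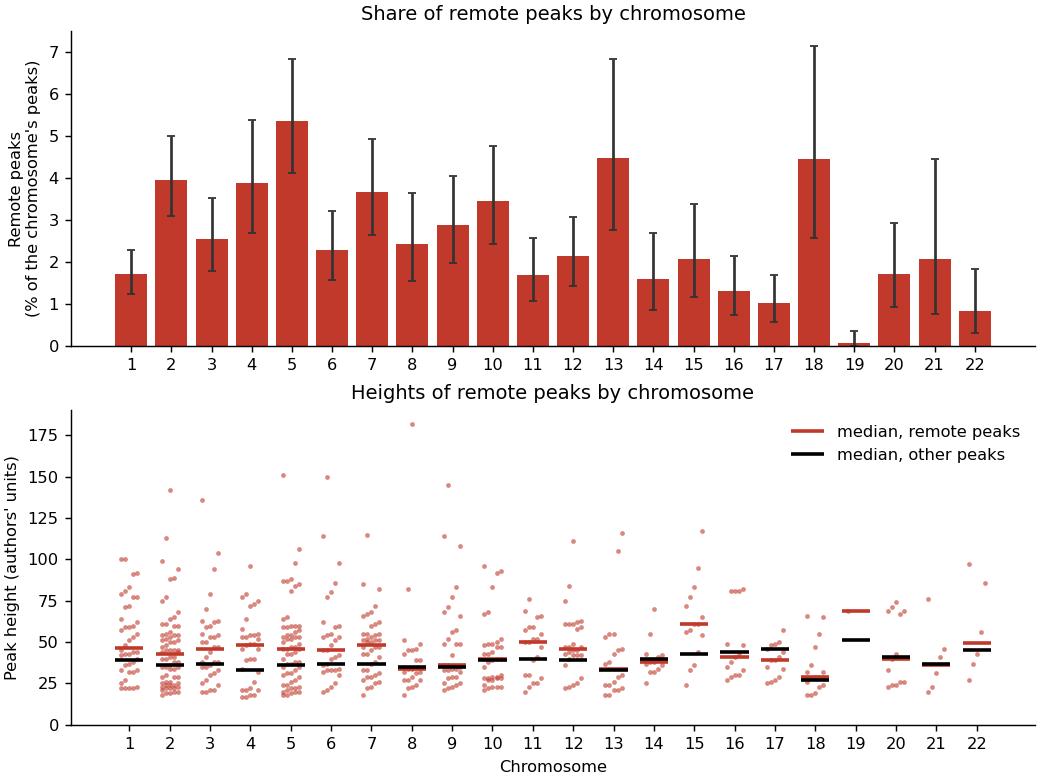
The upper panel gives remote peaks as a percentage of all peaks of each autosome, with exact 95% intervals. The lower panel gives the height of each remote peak in the authors' units, with the medians of remote (red) and other (black) peaks of the chromosome. Chromosome 5 reaches 5.36% and chromosome 19 has 1 remote peak; the red median lies above the black one on 16 of 22 chromosomes.

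The 10 tallest remote peaks had heights of 114 to 182 and lay on 9 chromosomes. Positions are those of the list, on hg19. The tallest was on chromosome 8 at 75262266 to 75263361, 1095 bp wide, with a height of 182, which placed it 27th among all autosomal peaks. It was the only remote peak listed at minus infinity for significance, a value carried by 0.120% of all autosomal peaks. Its neighbours, of heights 45 and 46, were 373 kb to the left and 2649 kb to the right. A peak on chromosome 5 at 140420357 to 140421210 had a height of 151 and a peak-free stretch of 0.619 Mb, with 54 other peaks within 1 Mb. On chromosome 6 at 84568728 to 84569809 a peak of height 150 stood between neighbours of height 53 and 53. These 3 show both kinds of setting, a wide desert and a gap in a crowded region.

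Next in height was a peak of 145 on chromosome 9 at 128844633 to 128845639, whose neighbours had heights of 21 and 21. A peak of 142 on chromosome 2 at 84686024 to 84687054 closed a stretch of 3.72 Mb without a listed peak to its left. On chromosome 3 a peak of 136 lay at 131753614 to 131754462. Chromosome 15 had a peak of 117, at 73638741 to 73639695, and chromosome 13 had a peak of 116 at 39611533 to 39613035. The last of the 10 were a peak of 115 on chromosome 7, at 126747555 to 126748390, and another of 114 on chromosome 6, at 5260557 to 5262136. The chromosome 13 peak had another tall remote peak as its left neighbour, of height 105 at 38923392 to 38924360 and 687 kb away. Widths of the 10 were 835 to 1579 bp, so none was narrow or broad, and each was taller than both of its neighbours, which their choice by height makes likely. Their distances to the nearest peak were 256 to 471 kb.

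The 10 most distant peaks had heights of 17 to 77, and 3 of them had widths of 200 bp or less. Their heights and widths cannot be set against those of the 10 tallest, which were chosen by height. The most distant was the first listed peak of chromosome 21, at 9882012 to 9882115, which was 103 bp wide and 23 high, with 5517 kb to the next peak. Of those with neighbours on both sides, the most distant was on chromosome 3 at 81810146 to 81811258. It was 1112 bp wide with a height of 53, and had 5.98 Mb to its left and 5.46 Mb to its right without a listed peak. Chromosome 7 had a peak of 761 bp and height 50 at 82791643 to 82792404 had 4.54 Mb and 3.90 Mb. These 2 stood at percentiles 71.0 and 67.1 of height on their chromosomes, above the median of all remote peaks.

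The rest of the 10 were mostly low or of middle height. A chromosome 4 peak only 107 bp wide, at 133187519 to 133187626, had a height of 17, percentile 2.29, in a stretch of 8.94 Mb. Peaks on chromosome 13 at 85536338 to 85536711 (height 21, 373 bp) and chromosome 2 at 156002556 to 156002696 (height 26, 140 bp) were at percentiles 16.0 and 29.7. A peak of height 29 lay on chromosome 18 at 39534820 to 39535385, and one of height 40 on chromosome 5 at 21459324 to 21459815. The first peak of chromosome 3, at 319828 to 320412, had a height of 38. The last peak of chromosome 4, at 190861526 to 190862472, had a height of 77, percentile 92.7, the highest of these 10. Whether a flank holds unassembled sequence, as it can near centromeres and chromosome ends, was not tested. Of all remote peaks, 12 bordered the longest gap of their chromosome, and the median height without those and the end peaks was again 43.

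The 5 widest members were 2286 to 3562 bp. The widest, on chromosome 4 at 129730506 to 129734068, spanned 3562 bp with a height of 53, and had 5 other peaks within 2 Mb. Chromosome 11 held one of height 52, at 115373485 to 115375837, and chromosome 5 one of height 56, at 107716245 to 107718571. The others were 91 high (chromosome 1, 149222637 to 149224927) and 60 high (chromosome 3, 119812624 to 119814910). None of the 5 was among the 10 tallest. The single remote peak of chromosome 19, at 28284181 to 28285848, was 1667 bp wide with a height of 69, and 4.28 Mb without a listed peak lay to its left, the longest gap of that chromosome.

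Members just inside the threshold lay 250.4, 250.7 and 251.0 kb from a neighbour. They were on chromosome 1 at 62901468 to 62903135 (height 81), chromosome 2 at 63815051 to 63816486 (height 113) and chromosome 2 at 23896879 to 23897678 (height 65). The nearest peaks outside it, at 249.7, 249.3 and 248.3 kb, had heights of 55, 50 and 40 on chromosomes 6, 15 and 13.

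Some remote peaks also followed one another. The rule favours this, because the neighbour of a remote peak already has a gap of over 250 kb on the shared side. No expected number was computed for the counts below. A run is a set of remote peaks with no other peak between them. Of the 575, 318 (55.3%) were single, with peaks that were not remote on both sides or a chromosome end, and 138 formed 69 pairs. There were 27 runs of 3, 7 of 4 and 2 of 5, and 10 remote peaks (1.74%) were in the longest runs, which are named after their values were seen. The run on chromosome 2 from 163696985 to 166810894 held 5 peaks over 3.11 Mb, with heights of 55, 24, 25, 22 and 61, so that the outer 2 were higher than the 3 between them. The run on chromosome 9 from 68412519 to 70646122 held peaks of heights 56, 49, 68, 23 and 34 over 2.23 Mb. A run of 4 on chromosome 18 from 61637587 to 71816041 was the longest in bases of the runs of 4 or 5, at 10.2 Mb, with heights of 28, 26, 66 and 47. On chromosome 2 the run of 4 from 79238527 to 84687054 had heights of 41, 29, 35 and 142 and ended with the fifth tallest remote peak.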

How the data were processed

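The KMT2D library was represented by a single list of 24824 peaks in 11 columns without a header, and columns were read from their values. The build is hg19 and CASAVA 1.8.2 is named, both per the submitters' processing notes. Not given in the sources used here are the aligner, the caller of the peaks with its cut-off, how the input served, and whether positions count from 0 or 1. The authors deposited a whole-number signal per peak, used as height in their units (whether normalized is not stated), 2 score columns (a positive score and the significance value), and the position of the highest point in percent of the width. No 2 autosomal peaks lay closer than 101 bp.

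Distances, ranks within the chromosome and medians were computed with Python 3.11.15, numpy 2.4.6, pandas 2.3.3 and scipy 1.17.1, and figures with matplotlib 3.10.9. Intervals are exact binomial for shares and order-statistic intervals for medians. The distance rule was tried on 800 simulated peaks. It found all 100 planted remote peaks and called no other, with peaks at chromosome ends left out of the false calls. Median intervals held the true median in 474 of 500 simulated sets of 600 continuous values. Tied whole-number heights and smaller groups, such as the farthest distance classes, were not simulated.

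Named peaks are the 10 tallest, the 10 most distant, the 5 widest, 3 on each side of the threshold, and all members of a chromosome with at most 3. Members and lists were chosen with earlier results of these data known. Alternatives were distances of 100 and 500 kb, merging peaks under 500 bp apart, the highest-scoring 50% of peaks, a minimum height of 26, leaving out members at chromosome ends or beside the longest gap, adding chromosome X, and, added after seeing the data, leaving out peaks of 200 bp or less. Planned counts over gene lists were not made, and peak sequences were not used here, because both need hg19.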

Additional observations from a re-analysis of the deposited data

How the results depend on the processing

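A median or share is said to move when an alternative takes it outside its 95% interval, and the number of remote peaks when it differs more than 1.5 times. Under the alternatives 20 of 43 values stayed and 23 moved. A distance of 100 kb gave 1872 remote peaks, a median over chromosomes of 8.11% of peaks, a median stretch of 0.687 Mb, a height of 46 and a width of 731 bp. At 500 kb these were 188 peaks, 0.794%, 2.54 Mb, 39.5 and 619 bp, with a height percentile of 53.2. Counts, shares and lengths follow from the distance by construction. Merging peaks under 500 bp apart gave 644 remote peaks, among them all 575, and a percentile of 49.5. The highest-scoring 50% gave 785 remote peaks, 341 of them also in the main set, with a share of 7.24%, a height of 55, a width of 926 bp and a percentile of 40.7. A minimum height of 26 gave a height of 47, a width of 777.5 bp and a percentile of 51.2, and leaving out peaks of 200 bp or less gave 46, 745 bp, 50.9 and a share of 3.69%. Removing low or narrow peaks raises medians of height and width by construction, and it creates new remote peaks. Percentiles are ranks among the peaks that entered. Removing low or narrow peaks, or merging close ones, therefore also changes them by construction. The cause of any other shift was not tested. With depth unknown, a stretch without a listed peak may hold binding under the threshold. No paired analysis was possible because there was 1 KMT2D library and no test.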

Other observations

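Chromosome X was outside the rule. By the same distance, 44 of its 621 peaks were remote, or 7.09% (5.20 to 9.40%). Their median height was 25 (22 to 33), against 26 for the other X peaks, and their median percentile was 47.7. They ran from 14 to 83 in height, and the tallest lay at 19002213 to 19003433.

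The deposited score per unit of height had a median of 0.636 (0.625 to 0.650) in remote peaks and 0.621 (0.619 to 0.623) in the others. For desert-edge peaks the median was 0.627 (0.621 to 0.633), an interval that overlaps that of remote peaks. For lone peaks it was 0.598 (0.595 to 0.601), under that of the others. The lowest score per unit of height among remote peaks was 0.406. It belonged to the peak of 1682 bp and height 56 on chromosome 9 at 68412519 to 68414201, which opens a run of 5.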
